A study of Drosophila melanogaster with 30 samples.

Results

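The proteasome is the protein machine that degrades ubiquitin-tagged proteins, and its subunits were followed here in regenerating leg imaginal discs of Drosophila melanogaster. The members are the rows of the authors' deposited tables of comparisons whose gene symbol starts with Pros, Rpn or Rpt, apart from prospero. This gave 30 genes, each with 1 listed Affymetrix probe set, of 3556 probe sets listed in either table. Further probe sets of these genes that were not listed could not be recognised. They are Prosalpha3, Prosalpha4, Prosalpha5 and Prosalpha6, the complete series Prosbeta1 to Prosbeta7 and Rpt1 to Rpt6, the 12 genes Rpn1, Rpn2, Rpn3 and Rpn5 to Rpn13, and the paralog Rpt3R. The other alpha subunit genes Prosalpha1, Prosalpha2 and Prosalpha7 were not listed, and neither were 14 of the 15 paralog genes looked for. Some members carry older names in the table of cut comparisons: Prosalpha4 is Pros28.1 there, Prosalpha6 is Pros35, Rpt2 is Pros26.4, Rpt5 is Tbp-1 and Prosbeta4 is CG17331.

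All 30 samples came from prothoracic leg discs of male larvae of 100 h. All were w/Y and carried AyGAL4 and UAS-GFP (both over +) as well as puc[E69-I]-GAL4 over UAS-flp, so controls and cut discs alike carried the GFP lineage reporter that puc, a gene induced by JNK signalling, switches on. There were 10 groups of 3 biological replicates, 30 arrays in all. For the cut groups, an anterior 1/4 or a posterior 3/4 fragment spent 12 or 24 h inside the abdomen of an adult female fly before its GFP-positive part was taken. The controls were the corresponding anterior and posterior regions of uncut discs, either cultured for 12 or 24 h in the same way or not cultured. Only the cut samples were selected by GFP, so cutting and selection of puc-expressing cells cannot be told apart. Cultured discs lay in the body cavity of an adult host, whose hemolymph holds cells of its own. RNA went through 2 rounds of amplification before labelling. Precision is limited by the small number of arrays in a group.

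The 26S proteasome is built of a barrel, the 20S core particle, and a cap, the 19S regulatory particle. Outer rings of alpha subunits gate the barrel and inner rings of beta subunits hold the protease sites, of which Prosbeta1 (caspase-like), Prosbeta2 (trypsin-like) and Prosbeta5 (chymotrypsin-like) are the catalytic members. In the cap a ring of AAA ATPases, Rpt1 to Rpt6, unfolds substrates and threads them into the core, while the Rpn subunits bind ubiquitin chains, cut them off and hold the cap together. Subunit genes are often transcribed together, and in flies the transcription factor CncC, which Keap1 holds down, can raise many of them at once. Proteasome activity is needed in growing imaginal discs for cell division, signalling and the removal of damaged proteins.

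The deposited values per array are log2 values (base 2 was assumed) from which the mean of each probe set had been removed, so no absolute level of a subunit is known and levels of different genes cannot be compared. The removal was done separately within 3 sets of arrays, as the values show: in each set the values of every probe set sum to 0. Set 1 holds 15 arrays, the cut anterior groups of 12 and 24 h together with the uncultured and the uncut cultured posterior groups. Set 2 holds 9 arrays, the uncultured and the 24 h uncut anterior groups and the cut posterior group of 24 h. Set 3 holds 6 arrays, the 12 h uncut anterior group and the 12 h cut posterior group. A difference between groups of 1 set is free of this step, while a difference between groups of different sets lacks the difference between the set means, and its standard error does not include that loss. The authors' deposited log fold changes equal differences of these centred values, so they carry the same step.

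Of the 8 comparisons in the deposited tables, 3 lie within a set, namely posterior regions cultured 12 and 24 h and anterior regions cultured 24 h, each against uncultured regions. The 4 comparisons of cut with uncut cultured regions all cross sets, as does the anterior culture comparison at 12 h. The mean cut effect over both regions is nevertheless free of the step at 12 h and at 24 h. The cut anterior group shares its set with the uncut posterior group of the same hour, the cut posterior group shares its set with the uncut anterior group, and the mean of these 2 differences equals the mean of the 2 regional cut effects. These mean effects were therefore used for the cut, and the regional values are given after them. The choice was made after the sets had been seen. Differences were tested with limma on 18769 probe sets, with Benjamini-Hochberg adjustment over all of them in each comparison, and "rose" and "fell" stand for an adjusted p under 0.05. The 95% intervals given are not adjusted for the number of probe sets.

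**Figure D1:**
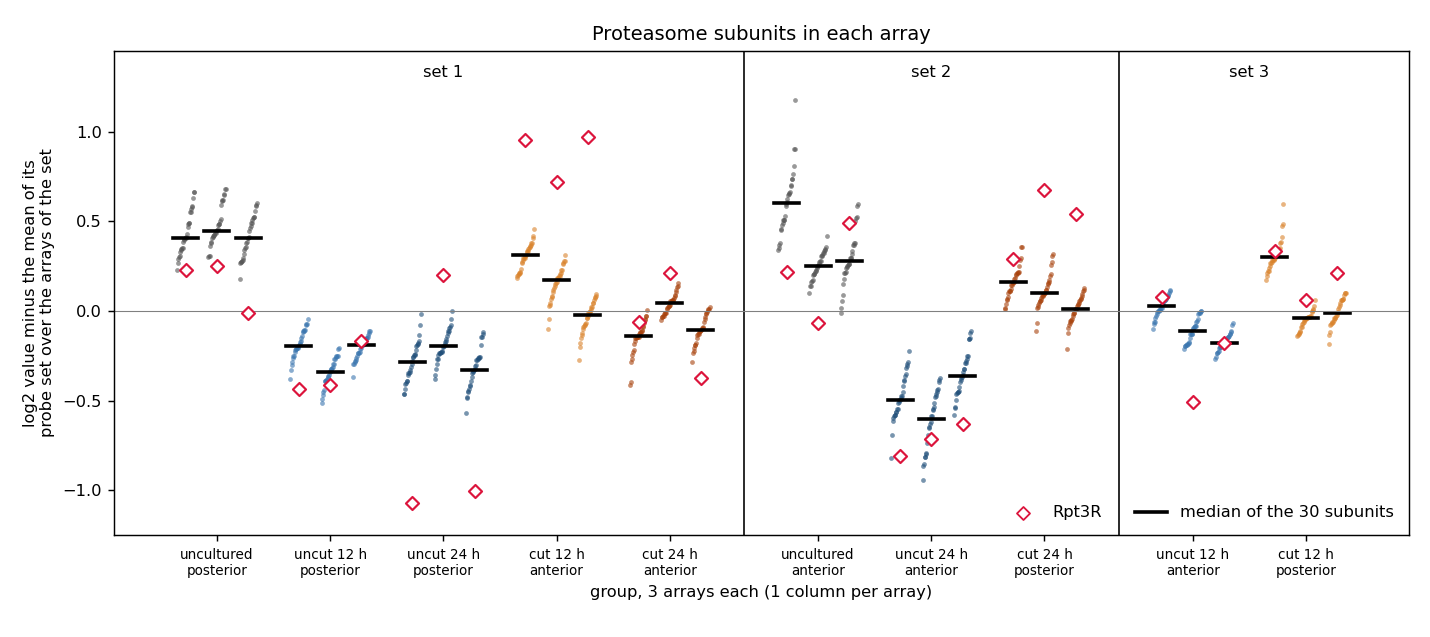
Centred log2 values of the 30 proteasome subunits in each of the 30 arrays (small points, Rpt3R as a red diamond, black bar for the median), arranged by the 3 sets of arrays within which the deposited values were centred. Within set 1 and set 2 the uncultured arrays hold the highest medians, the uncut cultured arrays the lowest, and the cut arrays lie below the uncultured and above the uncut ones. Heights can be compared within a set only.

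In set 1 the median of the 30 subunits was 0.41, 0.45 and 0.41 in the uncultured posterior arrays, against -0.19, -0.34 and -0.19 after 12 h and -0.29, -0.20 and -0.33 after 24 h of culture without a cut. Cut anterior arrays of the same set had medians of 0.31, 0.17 and -0.020 at 12 h and -0.14, 0.045 and -0.11 at 24 h. In set 2 the medians were 0.60, 0.25 and 0.28 in the uncultured anterior arrays, -0.50, -0.60 and -0.36 in the uncut arrays of 24 h and 0.16, 0.10 and 0.012 in the cut posterior arrays of 24 h. No uncut cultured array reached the lowest uncultured array of its set, and in set 2 the cut arrays lay above every uncut array. In set 3, which has no uncultured group, the medians were 0.028, -0.11 and -0.18 in the uncut anterior and 0.30, -0.041 and -0.010 in the cut posterior arrays of 12 h. Single arrays stand apart within their groups: replicate 1 was the highest of the uncultured anterior, the 12 h cut anterior and the 12 h cut posterior groups. In bulk tissue of this kind fewer cells of a type and less RNA per cell cannot be told apart.

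After 24 h all 30 subunits fell in the posterior region (median log2 difference -0.71) and all 30 fell in the anterior region (median -0.84). After 12 h 29 of 30 fell in the posterior region (median -0.66), Rpt3R being the exception. Among all probe sets 9.56%, 18.1% and 9.76% fell in these comparisons, with medians of -0.034, -0.061 and -0.016. The deposited culture table lists only probe sets with an overall adjusted p under 0.001 over its comparisons, and 29 of the 30 members were listed in it. The counts therefore describe the listed members, they say nothing of subunits that were not listed, and they are no independent evidence of a fall.

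The 30 members spanned -1.23 for Rpt4 to -0.58 for Prosbeta1 after 24 h in the anterior region, and -1.04 for Rpn12 to -0.34 for Rpt1 in the posterior region. After 12 h in the posterior region they spanned -1.01 for Rpn7 to -0.39 for Rpt1. The anterior minus posterior difference of the 24 h change was tested within sets: 0 of 30 members passed limma's test, 2 had an unadjusted p under 0.05, and its median was -0.16, with 1.28% of all probe sets past the threshold in either direction. Between 12 and 24 h of culture the posterior region showed no further call (0 of 30, 0 at an unadjusted p under 0.05, 0.213% of all probe sets lower), with a median difference of -0.0092. Leaving out posterior replicate 2 of 24 h gave 1 call in that comparison. With each array left out in turn, 29 of the 29 members called in posterior culture of 12 h, 27 of the 30 in posterior culture of 24 h and 30 of the 30 in anterior culture of 24 h stayed past the threshold every time.

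Values were higher in cut, GFP-selected tissue than in uncut cultured tissue. Averaged over both regions, 23 of 30 subunits rose at 12 h (median 0.29) and 27 of 30 rose at 24 h (median 0.38), and none fell. All 30 estimates were above 0 at both times. Among all probe sets 6.52% and 9.15% rose. The rule for listing used the regional cut comparisons for the 12 members found in the cut table, all 12 of which rose at both times. Of the 18 members listed in the culture table alone, 11 rose at 12 h (median 0.25) and 15 at 24 h (median 0.33). Those 18 were still chosen on comparisons that share the uncut cultured arrays. In the same comparisons 3 of 4 listed hemocyte genes rose at 12 h and 4 at 24 h, and 3 of 4 and 4 of 4 probe sets of leg disc genes fell (10% and 8.65% of all probe sets fell). All of these marker genes are in the cut table, whose threshold on the cut comparisons largely fixes such counts. Their part in the subunit results was not tested.

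Rpn1, Rpn3 and Rpt3 rose at neither time, and Prosbeta1, Rpn10, Rpn11 and Rpt1 rose at 24 h alone. A difference between the times was not detected for any member: 0 of 30 passed the test of the 24 h minus 12 h difference, 1 had an unadjusted p under 0.05, and 0.368% of all probe sets passed in either direction. Its median was 0.11, and the widest value was 0.32 for Prosalpha5 (95% interval 0.089 to 0.56). The 12 h count rests on few arrays. It dropped to 12 without replicate 1 of the 12 h cut anterior group or replicate 1 of the 12 h cut posterior group, and to 13 without replicate 2 of the 12 h uncut posterior group or replicate 3 of the 12 h uncut anterior group. The same 12 members stayed past the threshold in every one of the 12 omissions at 12 h, and 24 of the 27 did so at 24 h.

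**Figure D2:**
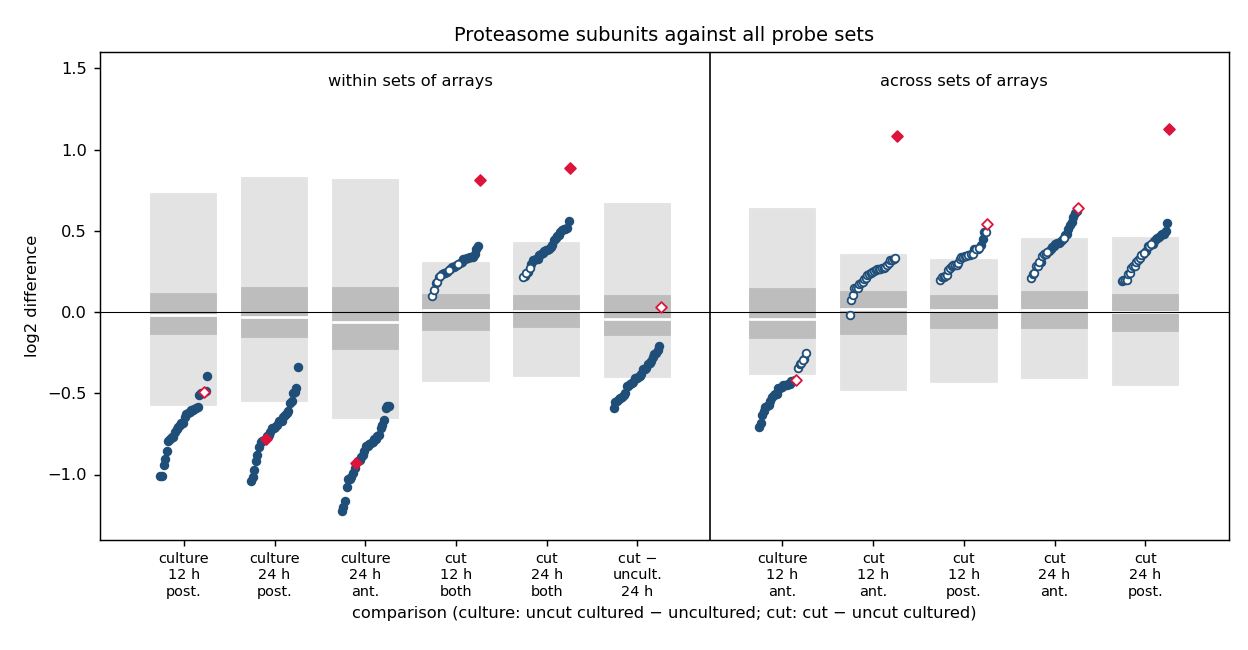
Log2 differences of the 30 subunits (points, sorted; Rpt3R as a red diamond; filled where the adjusted p was under 0.05) over the spread of all 18769 probe sets (light grey 5th to 95th percentile, dark grey 25th to 75th, white line the median). Within sets, all subunits lie below the dark grey range in culture. They lie above it after cutting, apart from Rpt3 at 12 h. The comparison of cut with uncultured tissue at 24 h has 29 of 30 subunits below 0. Comparisons to the right of the line cross sets.

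Within single sets the cut and uncut groups can be looked at directly, although they then differ in region as well, so these pairs carry no test. In set 2 all 3 cut posterior values of 24 h lay above all 3 uncut anterior values of 24 h for 30 of 30 subunits, against 15.2% of all probe sets. In set 1 the cut anterior values of 12 h lay above the uncut posterior values of 12 h for 25 of 30 subunits (18.3% of all probe sets), and at 24 h for 16 of 30 (13.1%). In set 3 the cut posterior values of 12 h lay above the uncut anterior values for 5 of 30 (11.5%). The median differences of these pairs were 0.58, 0.39, 0.20 and 0.19, and 29 or 30 of the 30 subunits were higher in the cut group in each pair. These pairs are the parts of the mean cut effects given above. The listing of the members used the same arrays, so the counts are descriptions and no independent evidence of a rise.

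At 24 h most subunits were lower in cut than in uncultured tissue. Averaged over both regions, 29 of 30 subunits were past the threshold and lower in cut than in uncultured tissue (median -0.40), against 13.6% of all probe sets, and Rpt3R differed by 0.030 (95% interval -0.29 to 0.35). All 3 cut anterior values of 24 h lay below all 3 uncultured posterior values for 29 of 30 subunits (18.6% of all probe sets), and all 3 cut posterior values lay below the uncultured anterior values for 19 of 30 (14.2%). These comparisons share arrays with the culture comparisons and with the cut comparisons. Within cut anterior tissue, which lies in set 1 at both times, all 30 estimates were lower at 24 h than at 12 h (median -0.21), of which 8 had an unadjusted p under 0.05 and 1 (Rpt3R) passed the test, against 1.04% of all probe sets that fell. For Rpn12, the values side by side were -1.04 and -1.17 for 24 h of culture, 0.51 for the mean cut effect at 24 h and -0.59 for cut against uncultured tissue. For Rpt1 they were -0.34 and -0.58 with culture, 0.25 with the cut and -0.21 for cut against uncultured tissue.

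**Figure D3:**
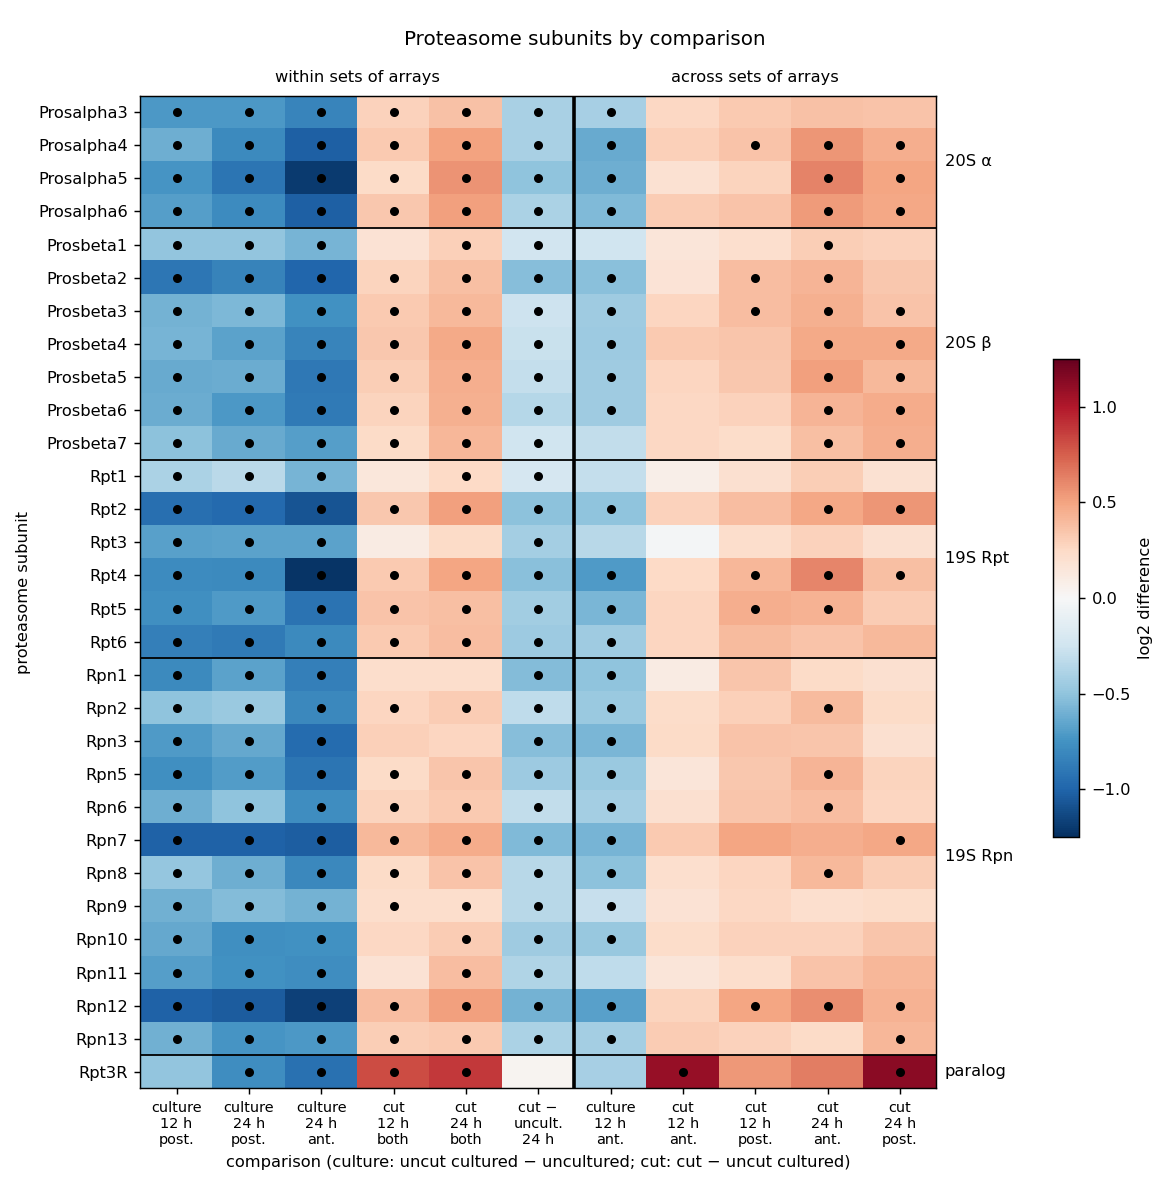
Log2 differences of the 30 subunits (rows, grouped by subcomplex) in 11 comparisons (columns), on a colour scale from blue (lower) to red (higher), with a dot where the adjusted p was under 0.05. To the left of the thick line the 6 comparisons lie within sets of arrays. Culture columns are blue for all subunits and columns of cut against uncut cultured tissue are red. The column of cut against uncultured tissue at 24 h is blue for 29 of the 30. The 5 regional comparisons to the right cross sets.

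The alpha subunits form the outer rings of the core and its gate. All 4 listed ones fell in the 3 within-set culture comparisons, with class medians of -0.70 at 12 h and -0.79 at 24 h in the posterior region and -1.02 at 24 h in the anterior region, and all 4 rose with the cut at both times (class medians 0.31 and 0.51). In set 1, Prosalpha5 stood at 0.55, 0.49 and 0.52 in uncultured posterior arrays, -0.25, -0.25 and -0.15 after 12 h and -0.44, -0.27 and -0.48 after 24 h of uncut culture, and at 0.30, 0.21 and -0.13 (12 h) and -0.047, 0.059 and -0.10 (24 h) in the cut anterior arrays. In set 2 it stood at 0.74, 0.31 and 0.60 in uncultured anterior, -0.60, -0.82 and -0.53 in uncut anterior 24 h and 0.22, 0.10 and -0.011 in cut posterior 24 h arrays, and in set 3 at 0.079, -0.085 and -0.18 in the uncut and 0.21, -0.036 and 0.013 in the cut arrays. Uncultured and uncut cultured values did not overlap in either set, and the 24 h cut values of set 2 lay wholly between them. The 24 h fall of Prosalpha5 was -1.20 in the anterior (SE 0.11, limma adjusted p = 1.18e-08, 2.29-fold lower) and -0.92 in the posterior region (adjusted p = 9.71e-07). Its cut effect was 0.23 at 12 h (adjusted p = 0.0461) and 0.56 at 24 h (SE 0.081, adjusted p = 1.76e-05, 1.47-fold), the largest 24 h effect among the canonical subunits. The probe set of Prosalpha5 is of a type that can match more than 1 transcript of a gene.

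Prosalpha4 is another subunit of the alpha ring. Its set 1 values were 0.41, 0.48 and 0.39 uncultured, -0.11, -0.27 and -0.19 (12 h) and -0.24, -0.30 and -0.57 (24 h) in uncut culture, and 0.34, 0.16 and -0.086 (12 h) and -0.026, 0.055 and -0.034 (24 h) in the cut arrays. Set 2 gave 0.48, 0.35 and 0.58 uncultured, -0.55, -0.62 and -0.50 uncut and 0.11, 0.071 and 0.072 cut at 24 h, and set 3 gave -0.059, -0.19 and -0.23 uncut and 0.38, 0.0086 and 0.10 cut at 12 h. Uncultured, cut and uncut arrays of the same hour did not overlap in any set. Prosalpha4 was 2.04-fold lower after 24 h of anterior culture (log2 difference -1.03, SE 0.10, adjusted p = 3.14e-08), and higher with the cut at 12 h (0.33, adjusted p = 0.00264) and at 24 h (0.50, SE 0.073, adjusted p = 1.92e-05).

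For Prosalpha6 the uncultured values were 0.38, 0.44 and 0.48 in set 1 and 0.70, 0.34 and 0.30 in set 2. Uncut cultured values were -0.21, -0.39 and -0.17 (12 h) and -0.35, -0.24 and -0.48 (24 h) in set 1, -0.38, -0.79 and -0.54 (24 h) in set 2 and 0.015, -0.10 and -0.23 (12 h) in set 3. Cut values were 0.42, 0.26 and -0.041 (12 h) and -0.18, 0.13 and -0.063 (24 h) in set 1, 0.14, 0.27 and -0.029 (24 h) in set 2 and 0.30, -0.044 and 0.065 (12 h) in set 3. Cut and uncut arrays of the same hour did not overlap in set 1 or set 2, and they overlapped in set 3. Prosalpha6 fell by 2.02-fold with 24 h of anterior culture (adjusted p = 1.07e-06) and its cut effects were 0.34 (adjusted p = 0.0116) and 0.51 (adjusted p = 0.000244). Prosalpha3, whose tail closes the gate of the core in yeast, fell in all 3 comparisons (-0.72, -0.72 and -0.83) and rose with the cut by 0.29 and 0.36.

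All 7 beta subunits, which form the inner rings with the protease sites, fell in each within-set culture comparison, with class medians of -0.59, -0.63 and -0.83 for posterior 12 h, posterior 24 h and anterior 24 h. With the cut 6 of 7 rose at 12 h and all 7 at 24 h (class medians 0.28 and 0.41). Prosbeta2, the trypsin-like subunit, had set 1 values of 0.58, 0.65 and 0.52 uncultured, -0.38, -0.34 and -0.24 (12 h) and -0.28, -0.19 and -0.27 (24 h) uncut, and 0.29, 0.080 and -0.069 (12 h) and -0.15, 0.030 and -0.22 (24 h) cut. In set 2 the values were 0.74, 0.33 and 0.29 uncultured, -0.51, -0.65 and -0.45 uncut and 0.16, 0.13 and -0.042 cut, and in set 3 -0.031, -0.054 and -0.13 uncut and 0.28, -0.064 and -0.0070 cut. Uncultured values lay above all others in sets 1 and 2, and cut and uncut arrays of the same hour were separate at 12 h in set 1 and at 24 h in set 2 but overlapped at 24 h in set 1 and at 12 h in set 3. Its fall was -0.90 at 12 h (SE 0.11, adjusted p = 1.17e-06) and -0.83 at 24 h (adjusted p = 2.59e-06) in the posterior region, and its cut effects were 0.28 (adjusted p = 0.014) and 0.38 (adjusted p = 0.000951).

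Prosbeta5, the chymotrypsin-like one, fell with log2 differences of -0.63, -0.62 and -0.89 in the order posterior 12 h, posterior 24 h, anterior 24 h, and its cut effects were 0.31 and 0.46. Prosbeta1, the caspase-like one, had the smallest fall of the 30 at 24 h in the anterior region. There it went from 0.38, 0.098 and 0.26 uncultured to -0.31, -0.39 and -0.29 uncut (-0.58, SE 0.099, adjusted p = 5.62e-05). These groups did not overlap. Its cut arrays stood at 0.040, 0.12 and 0.094 in that set. Set 1 gave 0.29, 0.30 and 0.27 uncultured, -0.15, -0.36 and -0.11 (12 h) and -0.26, -0.080 and -0.26 (24 h) uncut, and 0.18, 0.27 and -0.027 (12 h) and -0.15, 0.087 and -0.0042 (24 h) cut, and set 3 gave 0.12, -0.011 and -0.13 uncut and 0.19, -0.12 and -0.051 cut. Cut and uncut arrays of Prosbeta1 were separate at 12 h in set 1 and in set 2, and overlapped elsewhere. Its cut effect was 0.18 at 12 h (adjusted p = 0.08) and 0.30 at 24 h (adjusted p = 0.00305).

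Prosbeta4 and Prosbeta3 are beta subunits without a protease site. Prosbeta4 gave 0.31, 0.40 and 0.34 uncultured, -0.20, -0.32 and -0.18 (12 h) and -0.34, -0.19 and -0.45 (24 h) uncut, and 0.31, 0.28 and 0.078 (12 h) and -0.12, 0.070 and 0.012 (24 h) cut in set 1. In set 2 it gave 0.51, 0.25 and 0.26 uncultured, -0.48, -0.69 and -0.29 uncut and 0.20, 0.16 and 0.083 cut, and in set 3 -0.016, -0.085 and -0.23 uncut and 0.33, -0.040 and 0.045 cut. Both cut groups of set 1 lay above both uncut groups of that set. The cut effect of Prosbeta4 was 0.34 at 12 h (SE 0.076, adjusted p = 0.00262) and 0.47 at 24 h (adjusted p = 6.44e-05), against a fall of -0.83 with 24 h of anterior culture (adjusted p = 1.39e-06).

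Prosbeta3 gave 0.33, 0.42 and 0.28 uncultured, -0.22, -0.30 and -0.23 (12 h) and -0.19, -0.11 and -0.35 (24 h) uncut, and 0.22, 0.21 and -0.039 (12 h) and -0.12, 0.11 and -0.018 (24 h) cut in set 1. It gave 0.46, 0.21 and 0.26 uncultured, -0.59, -0.44 and -0.32 uncut and 0.15, 0.16 and 0.11 cut in set 2, and -0.072, -0.17 and -0.16 uncut and 0.35, -0.0037 and 0.063 cut in set 3, where cut and uncut did not overlap. At 24 h in set 1 they did overlap. Its fall was -0.76 at 24 h in the anterior region (SE 0.098, adjusted p = 1.23e-06) and its cut effects were 0.33 (adjusted p = 0.00156) and 0.40 (adjusted p = 0.000152). Prosbeta6 and Prosbeta7 rose with the cut by 0.28 and 0.24 at 12 h and by 0.45 and 0.41 at 24 h.

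The 6 ATPases Rpt1 to Rpt6 form the ring that drives unfolding. All 6 fell in each within-set culture comparison (class medians -0.78, -0.75 and -0.86 for posterior 12 h, posterior 24 h and anterior 24 h), 4 rose with the cut at 12 h and 5 at 24 h (class medians 0.33 and 0.38). Rpt4 fell farthest of all members in the anterior region. In set 2 it went from 0.90, 0.32 and 0.50 in uncultured to -0.56, -0.82 and -0.58 in uncut 24 h arrays, with the cut posterior arrays at 0.16, 0.055 and 0.012. Set 1 gave 0.57, 0.42 and 0.52 uncultured, -0.26, -0.33 and -0.25 (12 h) and -0.41, -0.15 and -0.33 (24 h) uncut, and 0.31, 0.11 and -0.077 (12 h) and -0.065, 0.061 and -0.13 (24 h) cut, and set 3 gave 0.010, -0.19 and -0.22 uncut and 0.27, 0.061 and 0.064 cut. In both sets with uncultured arrays the order was the same: uncultured above cut, cut above uncut, without overlap at 24 h. The anterior 24 h fall of Rpt4 was -1.23 (SE 0.12, adjusted p = 1.73e-08, 2.34-fold lower), and its cut effects were 0.33 (adjusted p = 0.00767) and 0.49 (adjusted p = 0.000142).

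Rpt5 and Rpt2 are ATPases whose tails dock into the alpha ring and open the gate, as known from yeast and mammals. Rpt5 had set 1 values of 0.41, 0.62 and 0.41 uncultured, -0.19, -0.45 and -0.23 (12 h) and -0.25, -0.17 and -0.26 (24 h) uncut, and 0.28, 0.036 and 0.0085 (12 h) and -0.087, 0.056 and -0.19 (24 h) cut. Set 2 gave 0.60, 0.31 and 0.33 uncultured, -0.55, -0.55 and -0.42 uncut and 0.15, 0.087 and 0.045 cut, and set 3 -0.10, -0.18 and -0.20 uncut and 0.38, -0.0023 and 0.099 cut. Cut arrays lay above uncut arrays of the same set and hour apart from 24 h in set 1, where they overlapped. Rpt5 fell with log2 differences of -0.77 in 12 h of posterior culture (adjusted p = 3.71e-06) and -0.92 in 24 h of anterior culture (SE 0.10, adjusted p = 1.54e-07), and its cut effects of 0.36 (adjusted p = 0.00107) and 0.37 (adjusted p = 0.000522) were nearly equal.

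Rpt2 gave 0.63, 0.62 and 0.58 uncultured, -0.21, -0.49 and -0.28 (12 h) and -0.46, -0.22 and -0.39 (24 h) uncut, and 0.41, 0.18 and 0.085 (12 h) and -0.22, -0.030 and -0.21 (24 h) cut in set 1. In set 2 it gave 0.66, 0.36 and 0.32 uncultured, -0.69, -0.94 and -0.27 uncut and 0.29, 0.26 and 0.030 cut, and in set 3 0.053, -0.062 and -0.18 uncut and 0.34, -0.14 and -0.014 cut. The uncut 24 h anterior values were the most spread of its groups, while the uncultured posterior values were the least spread. Its falls were -0.94, -0.97 and -1.08 (adjusted p = 1.59e-05, 8.14e-06 and 1.38e-06 for posterior 12 h, posterior 24 h and anterior 24 h), and its cut effects 0.34 (adjusted p = 0.0187) and 0.51 (adjusted p = 0.000479).

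Rpt6, another ATPase of the ring, fell with log2 differences of -0.85, -0.88 and -0.80 (posterior 12 h, posterior 24 h, anterior 24 h) and rose with the cut by 0.33 and 0.38. Rpt3 fell with log2 differences of -0.68, -0.67 and -0.67, but its cut effects of 0.098 (95% interval -0.095 to 0.29) and 0.24 (0.048 to 0.43) did not pass the test. Rpt1 had the smallest posterior falls of the 30 members: from 0.27, 0.30 and 0.18 uncultured to -0.075, -0.21 and -0.15 at 12 h (-0.39, SE 0.11, adjusted p = 0.00943) and -0.081, -0.046 and -0.14 at 24 h (-0.34, adjusted p = 0.0227). These groups of Rpt1 did not overlap. Its other set 1 values were 0.23, 0.025 and -0.20 (12 h) and -0.15, 0.034 and 0.020 (24 h) cut, set 2 gave 0.35, 0.16 and 0.21 uncultured, -0.42, -0.47 and -0.12 uncut and 0.18, 0.057 and 0.060 cut, and set 3 gave 0.071, -0.086 and -0.15 uncut and 0.28, -0.052 and -0.069 cut. Cut and uncut arrays of the same hour were separate in set 2 and overlapped in sets 1 and 3. With the cut Rpt1 differed by 0.14 at 12 h (adjusted p = 0.247) and rose by 0.25 at 24 h (adjusted p = 0.0246).

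The Rpn subunits scaffold the cap and handle ubiquitin. All 12 listed ones fell in each within-set culture comparison (class medians -0.67, -0.68 and -0.81 for posterior 12 h, posterior 24 h and anterior 24 h), 8 rose with the cut at 12 h and 10 at 24 h (class medians 0.26 and 0.33). Rpn12, a lid subunit that joins the lid late in its assembly in yeast, had the smallest p of the Rpn subunits over the 8 deposited comparisons. Its set 1 values were 0.66, 0.68 and 0.56 uncultured, -0.33, -0.51 and -0.28 (12 h) and -0.46, -0.33 and -0.44 (24 h) uncut, and 0.35, 0.085 and 0.063 (12 h) and 0.0063, 0.083 and -0.13 (24 h) cut. Set 2 gave 0.77, 0.42 and 0.52 uncultured, -0.82, -0.51 and -0.46 uncut and 0.098, 0.045 and -0.048 cut, and set 3 0.061, -0.21 and -0.20 uncut and 0.31, -0.029 and 0.064 cut. In sets 1 and 2 the 3 states were fully separated, with the cut arrays between the uncultured and the uncut ones. Rpn12 fell 2.06-fold with 24 h of posterior culture (-1.04, SE 0.11, adjusted p = 1.41e-07) and 2.24-fold with 24 h of anterior culture (adjusted p = 1.73e-08), and its cut effects were 0.39 (adjusted p = 0.00131) and 0.51 (adjusted p = 4.76e-05).

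Rpn7 and Rpn5 are scaffold proteins of the lid. Rpn7 fell farthest of all members with 12 h of posterior culture. Its set 1 values were 0.66, 0.68 and 0.60 uncultured, -0.25, -0.47 and -0.37 (12 h) and -0.40, -0.38 and -0.31 (24 h) uncut, and 0.46, 0.14 and -0.013 (12 h) and -0.13, 0.015 and -0.24 (24 h) cut. In set 2 they were 0.90, 0.22 and 0.24 uncultured, -0.39, -0.86 and -0.46 uncut and 0.22, 0.21 and -0.076 cut, and in set 3 0.066, -0.18 and -0.27 uncut and 0.29, 0.0080 and 0.091 cut. Replicate 1 of the uncultured anterior group was well above its other arrays, and the uncultured posterior arrays agreed closely. The 12 h posterior fall was -1.01 (SE 0.15, adjusted p = 1.59e-05, 2.02-fold lower), and the cut effects were 0.41 (adjusted p = 0.00906), the largest of the canonical subunits at 12 h, and 0.47 (adjusted p = 0.00243).

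For Rpn5, set 1 gave 0.43, 0.61 and 0.38 uncultured, -0.19, -0.39 and -0.30 (12 h) and -0.18, -0.23 and -0.26 (24 h) uncut, and 0.29, 0.13 and -0.10 (12 h) and -0.23, 0.027 and 0.0092 (24 h) cut. Set 2 gave 0.61, 0.31 and 0.37 uncultured, -0.45, -0.55 and -0.45 uncut and 0.30, -0.11 and -0.0098 cut, and set 3 gave 0.10, -0.088 and -0.14 uncut and 0.25, -0.060 and -0.062 cut. At 24 h the cut and uncut groups of set 2 did not overlap, while in set 1 the lowest cut anterior value of 24 h reached the uncut posterior values. Its fall with 24 h of anterior culture was -0.91 (adjusted p = 1.2e-06) and its cut effects were 0.24 (adjusted p = 0.0465) and 0.35 (SE 0.083, adjusted p = 0.00332).

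Ubiquitin is handled by few of the Rpn subunits. The ubiquitin receptors Rpn10 and Rpn13 fell with log2 differences of -0.76 and -0.74 with 24 h of posterior culture and of -0.75 and -0.71 with 24 h of anterior culture. With the cut Rpn13 rose by 0.30 and 0.33 at 12 and 24 h, and Rpn10 rose by 0.32 at 24 h (adjusted p = 0.031). Rpn11, the enzyme that removes the ubiquitin chain from a substrate, fell with log2 differences of -0.76 and -0.78 and rose by 0.39 at 24 h, and its partner Rpn8 fell with log2 differences of -0.61 and -0.81 and rose by 0.24 and 0.36. The large scaffold Rpn2, on which Rpn13 sits, rose by 0.27 and 0.32. Rpn1, the other large scaffold, fell with a log2 difference of -0.85 with 24 h of anterior culture, and its cut effects of 0.22 (95% interval -0.017 to 0.46) and 0.22 (-0.025 to 0.46) did not pass the test.

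Of the other lid scaffolds, Rpn6 fell with log2 differences of -0.50 and -0.78 with 24 h of posterior and anterior culture and rose with the cut by 0.28 and 0.33. Rpn9 fell with log2 differences of -0.55 and -0.59 and rose by 0.22 at 12 h and 0.22 at 24 h (adjusted p = 0.0318 and 0.0268). Rpn3 fell with log2 differences of -0.64 and -0.96, and its cut effects of 0.30 (95% interval 0.016 to 0.58) and 0.27 (-0.010 to 0.55) did not pass the test. The uncultured anterior values of Rpn3 were the most spread of the 30 members, at 1.18, 0.27 and -0.0099. Sem1, the small lid subunit that the naming rule misses, fell with log2 differences of -0.66, -0.63 and -0.90 and rose with the cut by 0.23 and 0.42.

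**Figure D4:**
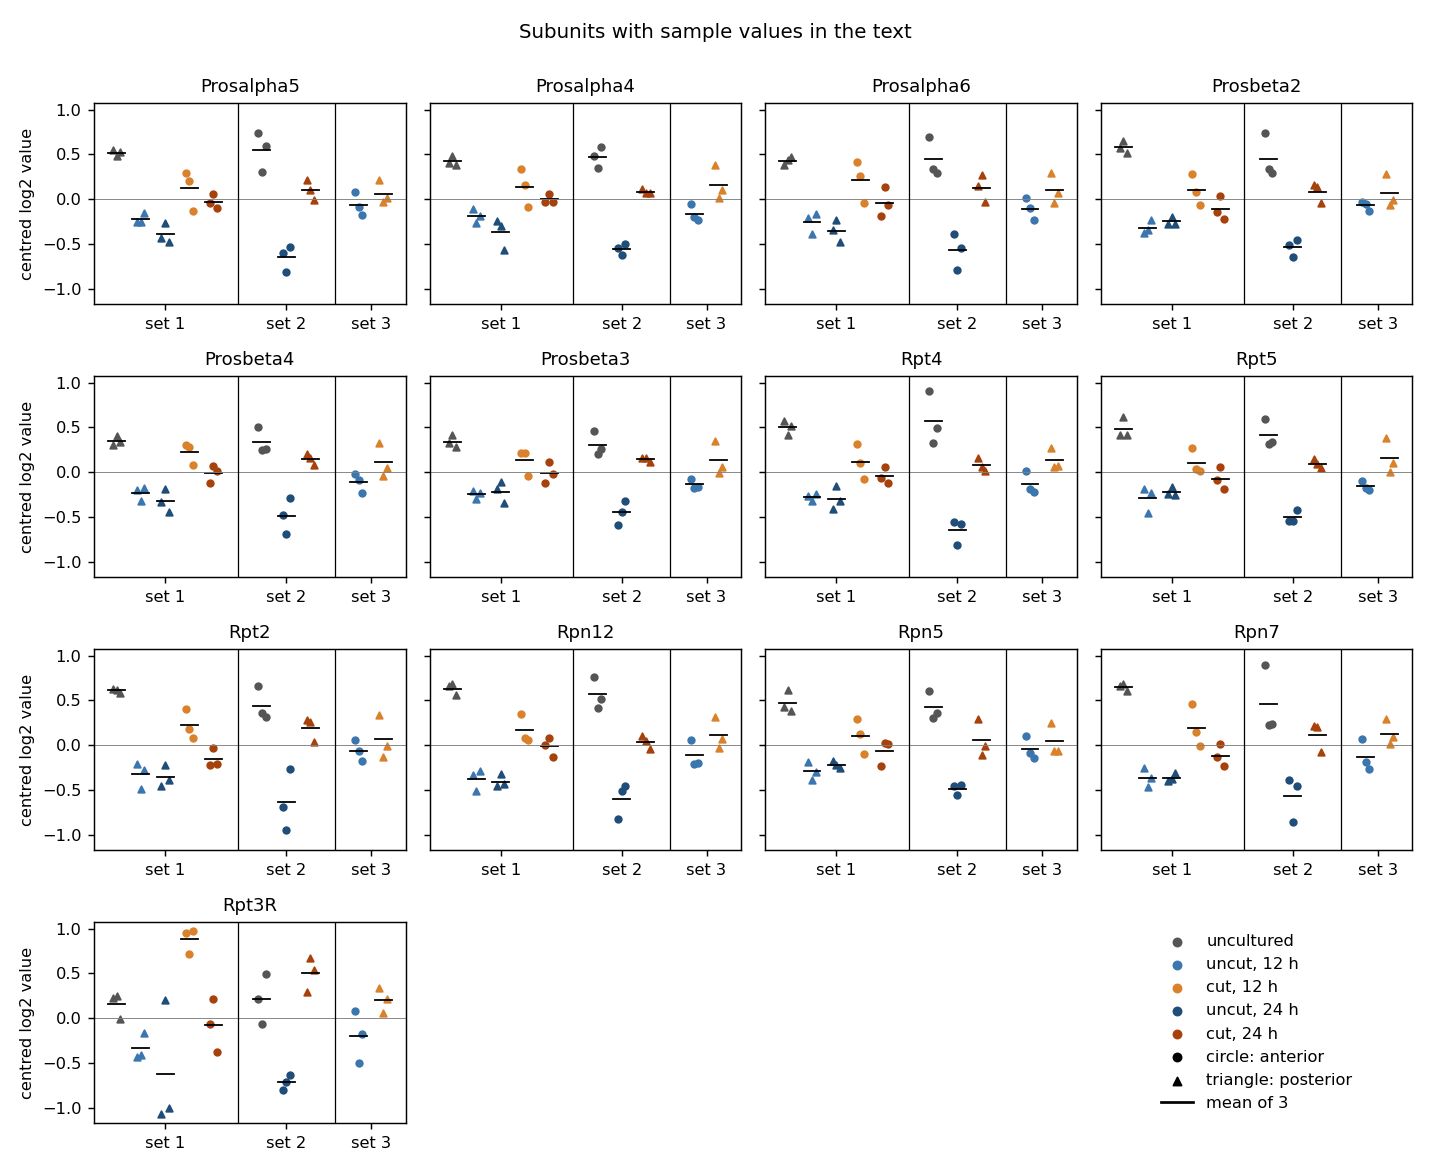
Centred log2 values of 13 subunits in every array, by set and group (colour for treatment and time, circles anterior, triangles posterior, black bar the mean of 3), each relative to the mean of its own set. In sets 1 and 2 the group means of all 12 canonical subunits shown are highest uncultured, lowest in uncut culture and between these in cut tissue, while Rpt3R reaches its highest values, up to 0.97, in the cut anterior arrays of 12 h.

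Rpt3R is a paralog of the ATPase gene Rpt3, and such duplicated proteasome genes of Drosophila are known mainly for expression in the testis. In set 1 its values were 0.23, 0.25 and -0.011 in uncultured posterior arrays, -0.43, -0.41 and -0.17 (12 h) and -1.07, 0.20 and -1.002 (24 h) in uncut culture, and 0.95, 0.72 and 0.97 (12 h) and -0.061, 0.21 and -0.37 (24 h) in cut anterior arrays. The 12 h cut anterior arrays lay above every other array of the set, and uncut replicate 2 of 24 h lay more than 1 log2 unit above both other arrays of its group. Set 2 gave 0.22, -0.068 and 0.49 uncultured, -0.81, -0.71 and -0.63 uncut and 0.29, 0.68 and 0.54 cut, and set 3 gave 0.076, -0.51 and -0.18 uncut and 0.33, 0.060 and 0.21 cut. In set 2 the cut posterior arrays of 24 h overlapped with the uncultured arrays and lay above all uncut ones.

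The cut effect of Rpt3R was 0.81 at 12 h (SE 0.16, adjusted p = 0.000663, 1.76-fold) and 0.89 at 24 h (SE 0.16, adjusted p = 0.000206, 1.85-fold), the largest of the 30 members at both times. It was past the threshold in each of the 12 omissions of an array at either time. Rpt3R had no call with 12 h of posterior culture (-0.49, adjusted p = 0.137) and fell with 24 h of posterior (-0.78, adjusted p = 0.0103) and anterior culture (-0.93, adjusted p = 0.00203). The posterior 24 h call was lost when replicate 1 or replicate 3 of the uncut group was left out, with a highest adjusted p of 0.101. In cut anterior tissue Rpt3R fell between 12 and 24 h with a log2 difference of -0.96 (adjusted p = 0.0144). That call was lost when replicate 3 of the 12 h group, or replicate 1 or 3 of the 24 h group, was left out. Rpt3R is also the only member listed by the cut table alone. It was therefore chosen on its cut differences, so the size and stability of its cut effect are no independent evidence of a rise. Its probe set, and those of Prosbeta5, Prosbeta7, Rpn6, Rpn9 and Rpn13, are of types that can match more than 1 transcript, so their values are less certain.

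Genes that build, regulate or feed the proteasome were taken from lists made with results of these data in view. Of 7 associated genes 4 were listed, and all 4 rose with the cut at 24 h and 3 at 12 h, while 3 fell in posterior culture at 12 h and 4 in each 24 h culture comparison. Among all probe sets 9.15% and 6.52% rose with the cut at 24 and 12 h, and 9.76%, 9.56% and 18.1% fell in posterior culture of 12 h, posterior culture of 24 h and anterior culture of 24 h. All 4 were listed in the culture table and 3 in the cut table, so the tables' own threshold on these comparisons chose them, as it did every gene of the lists that follow, and their counts are descriptions. Pomp, the chaperone that matures the core particle, fell with log2 differences of -0.91, -0.87 and -1.29 (posterior 12 h, posterior 24 h, anterior 24 h) and rose with the cut by 0.28 and 0.51 at 12 and 24 h. Uch-L5, a deubiquitinase that docks on Rpn13, fell with log2 differences of -1.36, -1.22 and -1.13, and rose by 0.41 and 0.37. The deubiquitinase Usp14 fell with a log2 difference of -1.07 with 24 h of anterior culture and rose by 0.47 at 24 h after the cut. The F-box gene ntc, whose protein works with a proteasome regulator in the fly testis, rose with the cut by 0.42 and 0.32.

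Of 12 genes of ubiquitin and its shuttles 3 were listed. TER94, the fly VCP ATPase that extracts ubiquitinated proteins, and its cofactor Ufd1-like fell in all 3 culture comparisons (-0.94 and -0.69 at 24 h in the anterior region) and rose with the cut at 24 h (0.34 and 0.25). Opposite in direction was ref(2)P, the fly counterpart of the p62 autophagy receptor for ubiquitinated proteins. It rose in culture by 1.84, 1.34 and 0.81, fell with the cut at 12 h (-0.80) and differed by -0.18 at 24 h (adjusted p = 0.527). Of 5 genes of the CncC pathway Keap1 alone was listed. It fell in culture with log2 differences of -0.68, -0.58 and -0.58 and had no call with the cut. Unlisted genes were not tested one by one, because the files used here name only the probe sets they list.

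Markers of other cell types moved with the same comparisons. Of 7 hemocyte genes 4 were listed (Hml, NimC1, eater and Sr-CI). In set 1 their mean centred value was lowest in uncultured posterior arrays (-1.12 to -0.997), then uncut posterior at 12 h (-0.80 to -0.44) and at 24 h (-0.74 to 0.26), cut anterior at 12 h (-0.055 to 1.11) and cut anterior at 24 h (1.34 to 1.89). In set 2 it ran from -1.16 to -0.81 uncultured, -0.24 to 0.38 uncut and 0.64 to 1.10 cut, and in set 3 from -0.82 to 0.16 uncut and -0.0056 to 0.46 cut. With the cut 3 of the 4 rose at 12 h and 4 at 24 h. In culture 0 rose in the posterior region at 12 h, 1 (Hml) at 24 h, and 4 in the anterior region at 24 h, comparisons in which the subunits fell. Among all probe sets 10.5%, 14.6% and 14% rose there. All 4 were listed in the cut table alone. Their part in the cut results was not tested.

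Neither of the fat body and testis lists had a listed gene (0 of 6 and 0 of 4). Of 3 genes of the adult female host Yp1 alone was listed. It rose with 24 h of anterior culture (3.16) and had no call in the mean cut effects. Across sets, Yp1 rose with 12 h of anterior culture and with the cut at 24 h in the posterior region. Of 6 myoblast and muscle genes 5 were listed, with 6 probe sets, of which 5 fell and 1 rose with the cut at 12 h and 2 fell and 1 rose at 24 h. In culture 2 of the 6 rose in the posterior region at 12 h, 6 at 24 h, and 2 in the anterior region at 24 h. All 3 listed neuron and glia genes of 5 (repo, ase and futsch) were past the threshold and lower with the cut at both times, and all 3 were in the cut table, whose threshold largely fixes such a count. In posterior culture ase fell at 12 h and futsch rose at 24 h. In anterior culture of 24 h futsch and repo rose. Of 5 leg disc genes Scr, ap and bab1 were listed, with 4 probe sets, and Dll and dac were not. With the cut 3 of the 4 fell at 12 h and all 4 at 24 h, and all 3 genes were in the cut table. In culture 2 of the 4 fell in the posterior region at 12 h, 1 at 24 h, and 2 in the anterior region at 24 h. Of all probe sets 9.76%, 9.56% and 18.1% fell and 10.5%, 14.6% and 14% rose in these culture comparisons. Among all probe sets 10% and 8.65% fell and 6.52% and 9.15% rose with the cut at 12 and 24 h. The part of these markers in the subunit results was not tested, and because levels were removed no marker can be said to be present or at 0 in any group.

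The regional comparisons of the deposited tables follow, all of which cross sets. Cut against uncut cultured, 1 of 30 subunits rose at 12 h anterior (Rpt3R; 3.15% of all probe sets rose), 6 at 12 h posterior (2.01%), 18 at 24 h anterior (5.59%) and 14 at 24 h posterior (4.81%), and none fell. Medians were 0.25, 0.34, 0.41 and 0.37, and 15 of the 30 had an unadjusted p under 0.05 at 12 h anterior. Among the 12 members that the cut table lists, the counts in this order were 1, 6, 11 and 10, and among the 18 others 0, 0, 7 and 4. Rpt3R was highest in all 4, at 1.08 (adjusted p = 0.0021), 0.54 (0.195), 0.64 (0.0757) and 1.13 (0.00137), while Rpt3 at -0.020 (SE 0.13), Rpt1 at 0.20 and 0.19, and Rpn9 at 0.21 were lowest. With 1 array left out at 12 h anterior, Rpt3 ran from -0.14 to 0.099, Rpt1 from -0.032 to 0.18 and Rpn1 from -0.0080 to 0.18, so the direction of these 3 was not settled there. In the authors' deposited table all 12 members present were in k-means cluster II, as were 39.9% of its 1480 probe sets.

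These regional counts moved with single arrays. At 12 h anterior the count was 2 without replicate 3 of the cut group. At 12 h posterior it was 0 without replicate 1 of the cut or replicate 2 of the uncut group, 2 without uncut replicate 3, and 3 without cut replicate 3 or uncut replicate 1. At 24 h anterior it was 7 without cut replicate 2 and 9 without uncut replicate 2. At 24 h posterior it was 9 without cut replicate 2 and 4 without uncut replicate 1 or 3. None of the 4 differences of the regional cut effects had a call among the 30: 24 h minus 12 h in the anterior (2 at an unadjusted p under 0.05, 2.15% of all probe sets called in either direction) and the posterior region (0, 0.474%), and anterior minus posterior at 12 h (0, 0.208%) and at 24 h (0, 0.123%). Leaving out replicate 2 of the 24 h uncut posterior group gave 1 call in the posterior difference. All 4 differences cross sets and lack differences between set means, so the missing calls cannot show that regions or times were equal.

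Rpt3 and Rpn9 were the lowest members at 12 h and at 24 h in the anterior region. Rpt3 had set 1 values of 0.59, 0.45 and 0.41 uncultured, -0.081, -0.31 and -0.21 (12 h) and -0.20, -0.23 and -0.14 (24 h) uncut, and 0.21, -0.047 and -0.28 (12 h) and -0.11, 0.063 and -0.11 (24 h) cut. Set 2 gave 0.65, 0.32 and 0.014 uncultured, -0.22, -0.54 and -0.25 uncut and 0.12, 0.023 and -0.12 cut for Rpt3, and set 3 gave 0.063, 0.0010 and -0.11 uncut and 0.22, -0.13 and -0.041 cut. Cut and uncut arrays of Rpt3 were separate at 24 h in sets 1 and 2 and overlapped at 12 h in sets 1 and 3. Rpn9 had set 1 values of 0.30, 0.46 and 0.35 uncultured, -0.21, -0.34 and -0.15 (12 h) and -0.13, -0.097 and -0.30 (24 h) uncut, and 0.21, 0.23 and 0.022 (12 h) and -0.29, -0.0090 and -0.046 (24 h) cut. Set 2 gave 0.37, 0.14 and 0.30 uncultured, -0.48, -0.37 and -0.11 uncut and 0.077, 0.035 and 0.055 cut for Rpn9, and set 3 gave 0.00040, -0.0041 and -0.068 uncut and 0.17, -0.038 and -0.062 cut. Cut and uncut arrays of Rpn9 were separate at 12 h in set 1 and at 24 h in set 2, and overlapped at 24 h in set 1 and at 12 h in set 3.

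The anterior culture comparison at 12 h also crosses sets. There 24 of 30 subunits fell (6.29% of all probe sets), with a median of -0.46, from -0.71 for Rpt4 (SE 0.12, adjusted p = 0.000162) to -0.25 for Prosbeta1 (adjusted p = 0.0838). The count was 14 without uncultured replicate 1. Set 3, which holds the 12 h uncut anterior arrays, has no uncultured group, whereas sets 1 and 2 each have 1, and the part of this in the value was not tested. The same holds for uncut anterior tissue at 24 h against 12 h, where 8 of 30 subunits fell (1.72% of all probe sets; median -0.38). That count was 0 without replicate 1 of 12 h, 3 without replicate 2 of 12 h and 2 without replicate 1 or 2 of 24 h. Uncultured anterior and posterior regions had no call (0 of 30, 0 at an unadjusted p under 0.05, 0.714% of all probe sets called in either direction). That comparison crosses sets 2 and 1 and lacks the difference between their means. It therefore cannot show that the uncultured regions were equal.

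Region by region against uncultured tissue, again across sets, 6 subunits fell and Rpt3R rose at 12 h anterior (7.56% of all probe sets fell and 7.28% rose), 11 fell at 12 h posterior (3.95%), 25 at 24 h anterior (5.53%) and 15 at 24 h posterior (7.22%). The Rpt3R rise was lost with the replicate block, where 0 rose and 9 fell, and with array weights, where 0 rose and 1 fell. Medians were -0.23, -0.34, -0.46 and -0.34. For 12 h anterior the calls came to 0 without cut replicate 3 or uncultured replicate 1, and to 2 without cut replicate 2. For 12 h posterior they came to 19 without cut replicate 1, 2 and 3 without cut replicates 2 and 3, 4 without uncultured replicate 2 and 6 without uncultured replicate 1 or 3. For 24 h anterior they came to 12 and 13 without cut replicates 1 and 3 and 10 without uncultured replicate 1. For 24 h posterior they came to 4 without cut replicate 3 and to 7 and 6 without uncultured replicates 1 and 2.

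The 30 genes are spread over the genome, as the RefSeq gene table of Release 6 places them: 4 on chromosome arm 2L, 8 on 2R, 5 on 3L, 9 on 3R and 4 on X. The closest neighbours, Rpn9 and Rpt5, are 3 genes apart. Promoter and protein sequences of the subunits were not analysed here.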

How the data were processed

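RNA of 30 leg disc samples was hybridised to Affymetrix arrays. Per the submitters' processing notes the authors used RMA and limma, with no versions given. The deposited array values are on a log2 scale (base 2 assumed) and, as found in the values, were centred per probe set within 3 sets of arrays. The authors' deposited tables hold log2 fold changes and overall adjusted p-values of the probe sets under 0.001. Here limma 3.58.1 in R 4.3.3 fitted 10 group means to 18769 probe sets, after 183 control probe sets were left out, with 20 residual degrees of freedom, moderated standard errors and Benjamini-Hochberg adjustment per comparison. The fit was run on simulated data that were centred over all arrays together. That run therefore could not check comparisons across sets. Comparisons within sets were added once the centring had been found. The members and gene lists were chosen with earlier results of these data known. Every member is named. Sample values are given for the 3 members per class (alpha, beta, Rpt, Rpn) with the smallest F-test p over the 8 deposited comparisons, and values for the highest and lowest member of each; of other lists, up to 4 members past the threshold. Symbols were matched through the RefSeq gene table. The alternatives left out arrays or replicates, used only the arrays compared, blocked on replicate number, weighted or recentred arrays, and kept control probe sets. Replicate numbers were not used as pairs in the main fit. Of 45 pairs of groups 0 had all 3 correlations of same-numbered arrays above 0.1, which cannot exclude a pairing. The labels call replicates biological and say no more, so p-values measure the spread between these samples. Sequences were not analysed here.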

Additional observations from a re-analysis of the deposited data

How the results depend on the processing

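Directions of single members were followed in the 8 deposited comparisons and in the mean cut effects at 12 and 24 h. No called value changed direction there under the alternatives run. Among uncalled differences, Rpt1, Rpt3 and Rpn1 changed sign for cut against uncut anterior tissue at 12 h with 1 array left out. Rpt3 did so there with array weights and without replicate 3 as well, and Rpn1 did so at 24 h without replicate 2. Fitting only the arrays compared gave 1 and 5 subunits past the threshold for cut against uncultured anterior tissue at 12 and 24 h, 10 for cut against uncut anterior tissue at 24 h, 0 for uncut anterior tissue at 24 h against 12 h and 11 for anterior culture of 12 h. Array weights gave 1, 29 and 10 for cut against uncultured tissue (12 h anterior, 12 h posterior, 24 h anterior), 8 and 17 for cut against uncut tissue at 12 h (anterior, posterior) and 5 for uncut anterior tissue at 24 h against 12 h. Centring each array on its median gave 2 for cut against uncut anterior tissue at 12 h. The replicate block gave 13 for uncut anterior tissue at 24 h against 12 h and, for cut against uncultured anterior tissue at 12 h, 0 rises and 9 falls in place of 1 and 6, so that Rpt3R lost its call; other counts stayed within 1.5 times in each direction. Whether the numbers pair the samples was not settled. The authors' deposited log fold changes, over the members in that table, gave cut medians of 0.52 (24 h anterior) and 0.45 (24 h posterior). The medians of all 30 members in the fit, 0.41 and 0.37, ranged from 0.287 to 0.501 and from 0.284 to 0.399 with a replicate number left out. With single arrays or replicates left out, the mean cut effect ranged from 4 to 24 subunits at 12 h and from 15 to 27 at 24 h, and its counterpart against uncultured tissue from 24 to 29. Culture ranged from 7 to 26 (12 h anterior), 23 to 29 (12 h posterior), 29 to 30 (24 h anterior) and 26 to 30 (24 h posterior). Cut against uncut ranged from 0 to 2, 0 to 5, 0 to 19 and 0 to 15, and cut against uncultured from 0 to 9, 0 to 19, 4 to 26 and 1 to 16 (both in the order anterior then posterior at 12 h, then the same at 24 h). Uncut tissue at 24 h against 12 h ranged from 0 to 9 (anterior) and 0 to 1 (posterior), cut anterior tissue at 24 h against 12 h from 0 to 1, and the 24 h minus 12 h difference of the posterior cut effect from 0 to 1. The cause of these moves was not tested. An intensity trend, a filter on dim probe sets and the choice of the brightest probe set per gene were not run. Levels were removed, and only 1 listed probe set per member could be recognised.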
